A study of Homo sapiens with 6 samples.

Results

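The genes described here encode integrins, laminins, collagens and further proteins that hold epidermal cells to their matrix. They were chosen as gene families by symbol, with earlier results of these data known: the integrin subunits (ITGA and ITGB), the laminin chains (LAMA, LAMB and LAMC), the collagen chains (COL), and DST, PLEC, FN1, TNC, THBS1, CD44, CD151, NID1 and HSPG2. They number 88 of the 20046 genes that the array's annotation names, and are read by 158 of its 47322 probes. The cells were HaCaT, human keratinocytes that grow as an immortal line, kept with serum in medium of 1.5 mM calcium. Each sample's total RNA was hybridized to 1 Illumina HT-12 bead array. There were 3 control samples, and 3 samples held for 24 h in histamine at 1 µg/ml. The labels do not say what the control samples received or whether the replicates are separate cultures, so the p-values rest on a spread between samples that may be technical. The samples of each group carry names from a numbered series of their own, so a processing batch and the treatment cannot be told apart.

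Integrins are receptors made of an alpha and a beta chain that span the cell membrane, bind matrix proteins outside and connect to the cytoskeleton inside. Basal keratinocytes rest on a basement membrane of laminins and type IV collagen. They grip it through focal contacts, in which beta 1 integrins couple to actin, and through hemidesmosomes, in which the alpha 6 beta 4 integrin couples to keratin filaments by way of plectin (PLEC) and an isoform of dystonin (DST). Tenascin-C (TNC), thrombospondin 1 (THBS1) and fibronectin (FN1) are matrix proteins that appear during wound repair.

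A probe was kept when it was detected above the negative control beads (detection p-value under 0.05) on 3 or more of the 6 arrays, and the brightest kept probe stood for its gene. By that rule 40 of the 88 genes were measured, 31 of them detected on all 6 arrays. The measured genes were 9 of 18 integrin alpha subunits, 5 of 8 beta subunits, 5 of 10 laminin chains, 15 of 43 collagen chains, and 6 of the 9 others. Of the 48 that were not measured, 31 were detected on no array. These include the interstitial collagen chains COL5A2 and COL6A1, the cartilage chains COL2A1, COL10A1 and COL11A1, the laminin chains LAMA1, LAMA2 and LAMA4, perlecan (HSPG2), the collagen receptor subunit ITGA1, and ITGB3, the beta subunit of platelets. FN1 was above background with 1 of its 3 probes, on control replicate 2 alone. ITGB6, whose product joins ITGAV in wounded epidermis, was detected on histamine replicates 2 and 3 and on no control array, at normalized log2 intensities of 4.74, 4.86 and 4.70 without and 5.15, 6.10 and 5.48 with histamine. COL1A1, the main chain of dermal collagen, was detected on control replicates 2 and 3 and on no histamine array (5.02, 5.88 and 5.56 without and 4.82, 5.41 and 4.75 with histamine). COL1A2 was detected on histamine replicate 1 alone and COL3A1 on histamine replicate 2 alone. The probes of ITGA7, an integrin subunit of muscle, and of LAMA2, the laminin chain of the muscle basement membrane, were above background on none of the arrays.

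Of the 40 measured genes 6 rose with histamine and 34 did not pass the test. Those that rose were the collagens COL16A1 and COL23A1, the integrin subunits ITGA5 and ITGA6, TNC and THBS1. A call means an adjusted p-value under 0.05, from limma's moderated test with Benjamini and Hochberg adjustment over all 10406 genes tested. Of all genes tested 21.4% were called, 9.29% higher and 12.1% lower, against 15% of the measured matrix and adhesion genes, all of them higher. The unadjusted p-value was under 0.05 for 7 of the 40 in the higher direction and for 4 in the lower direction. The share of all genes at that threshold was not counted, so nothing particular to these genes is read from it. With arrays scaled to their medians, 1 rose and 3 fell, against 456 and 1816 of all 10406 genes tested. Control and histamine arrays lay apart without overlap for 12 of the 40 (30%), 8 higher and 4 lower, against 37.4% of all genes tested. The median log2 difference, histamine minus control, was -0.04 for the 40 genes and -0.08 for all genes tested. COL23A1 was detected by histamine arrays only, and COL20A1 and ITGA10 by control arrays only, so that these genes could enter the test only by differing.

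**Figure D1:**
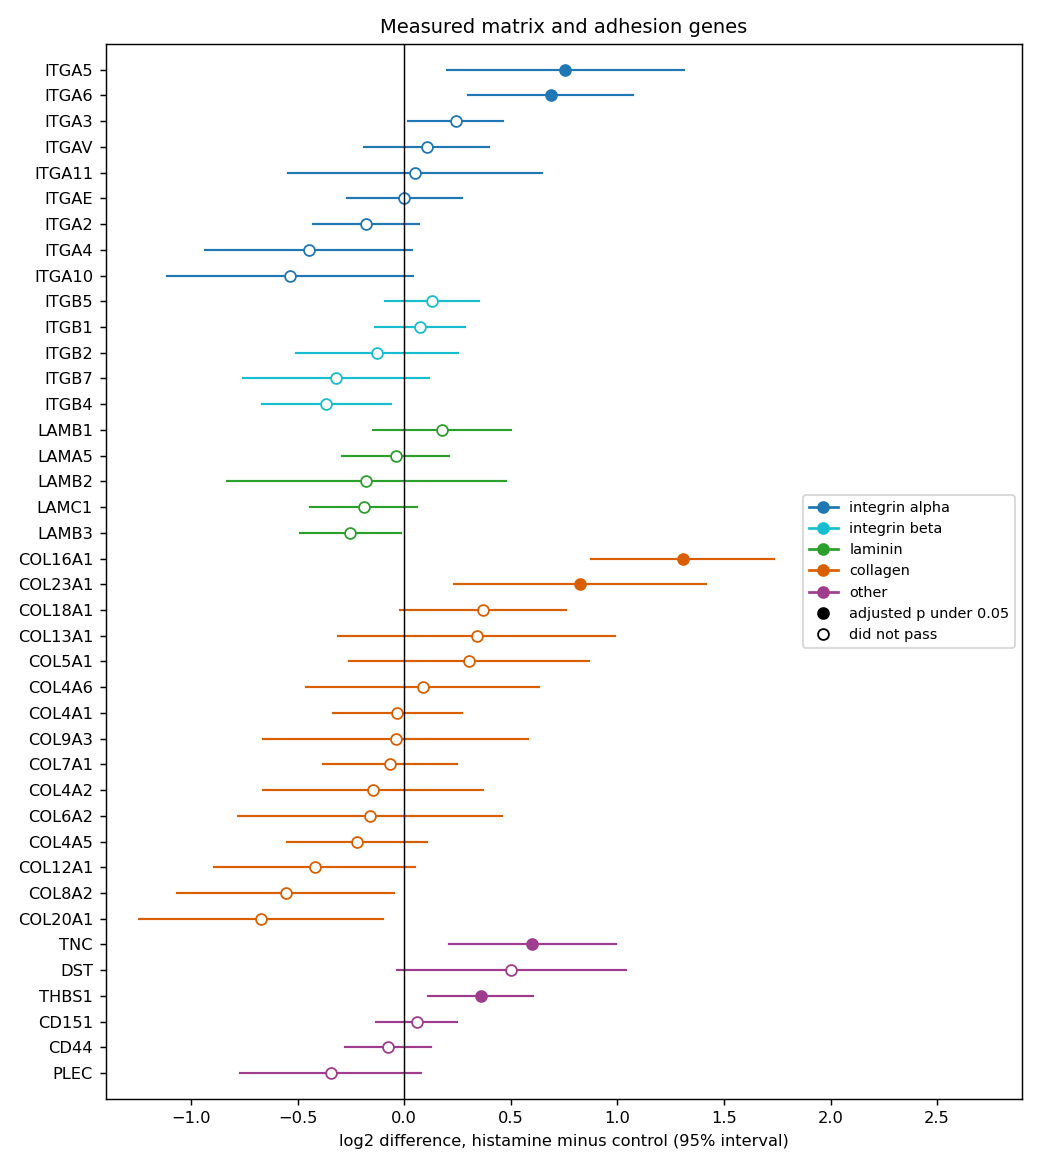
Log2 difference, histamine minus control, of each of the 40 measured genes with its 95% interval from the limma fit, grouped by family and coloured by it. Filled points passed at an adjusted p-value under 0.05; the 6 filled points all lie to the right of 0, with COL16A1 the farthest at 1.31.

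COL16A1, a chain of a minor collagen found near basement membranes, had the largest difference. Its normalized log2 intensity was 6.81, 6.35 and 6.93 on control replicates 1, 2 and 3 and 7.78, 8.24 and 7.97 on histamine replicates 1, 2 and 3. The lowest histamine array lay above the highest control array by more than the range of the control arrays. The log2 difference was 1.31 ± 0.20 (SE; adjusted p = 0.000249), or 2.47-fold, with n = 3 per group. It was the only one of the 6 that passed under each of the 17 other settings, with adjusted p-values from 0.000103 to 0.00662. COL23A1, a transmembrane collagen, read 5.29, 4.88 and 4.88 on control replicates 1, 2 and 3 and 5.91, 6.06 and 5.56 on histamine replicates 1, 2 and 3. None of its control arrays but every histamine array detected it, which gives a bound of at least 1.36-fold higher. For that bound, which carries no sampling error, control values were lifted to the lowest value among detected probes of the same array where they lay under it. The log2 difference was 0.82 ± 0.28 (adjusted p = 0.0444). As COL23A1 was kept through the histamine arrays only, it could enter the test only by differing, and its call supports nothing further. Its call was lost without any 1 control array and without histamine replicate 1 or 2. It was also lost with median scaling, with no filter on dim probes and with the replicate number as a block.

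ITGA5, which pairs with ITGB1 as the fibronectin receptor, read 5.91, 5.51 and 5.35 on control replicates 1, 2 and 3 and 6.62, 5.97 and 6.45 on histamine replicates 1, 2 and 3. The groups touch closely without overlapping. Control replicate 3 was the lowest of the 6 arrays and did not detect ITGA5, its 5.35 lying under that array's lowest detected value of 5.50. The log2 difference was 0.76 ± 0.26 (adjusted p = 0.0492), and the call was lost under 10 of 16 other settings, among them without control replicate 2 or 3 and without histamine replicate 1 or 3. ITGA6, the alpha subunit of the hemidesmosome integrin, read 8.46, 8.77 and 9.39 on control replicates 1, 2 and 3 and 9.38, 9.57 and 9.72 on histamine replicates 1, 2 and 3. Control replicate 3 lay within the histamine range, at 0.82 of the way from the mean of the other control arrays to the histamine mean, so the groups overlap. The log2 difference was 0.69 ± 0.18 (adjusted p = 0.0134), 1.61-fold, and became 0.94 without control replicate 3; the call was lost without control replicate 1 or 2 or histamine replicate 3, with median scaling, on the mean of its kept probes and without the intensity trend.

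TNC, the wound matrix glycoprotein, read 7.55, 7.31 and 8.01 on control replicates 1, 2 and 3 and 8.31, 8.06 and 8.30 on histamine replicates 1, 2 and 3. Control replicate 3 stood close below the lowest histamine array, at 0.73 of the way to the histamine mean. The log2 difference was 0.60 ± 0.19 (adjusted p = 0.0292). THBS1, which binds matrix and activates latent TGF-beta, read 11.40, 11.45 and 11.57 on control replicates 1, 2 and 3 and 11.86, 11.57 and 12.05 on histamine replicates 1, 2 and 3. The groups were separated by a margin of less than 0.01 between control replicate 3 and histamine replicate 2. The log2 difference was 0.36 ± 0.12 (adjusted p = 0.0366), or 1.28-fold. The TNC and THBS1 calls were both lost without control replicate 1 or 2, without histamine replicate 1 or 3, with median scaling, when dim probes were not filtered out and without the intensity trend.

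**Figure D2:**
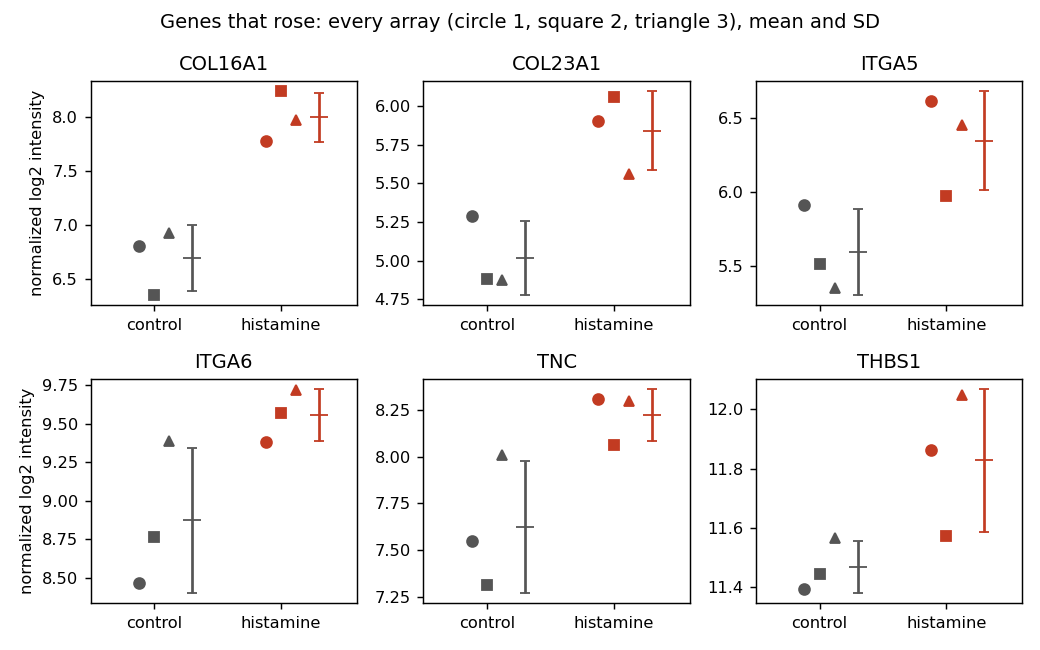
Normalized log2 intensity of the 6 genes that rose on every array, with group mean and SD (n = 3); circles, squares and triangles are replicates 1, 2 and 3, and the vertical axes differ and do not start at 0. The control triangle (replicate 3) lies within the histamine range for ITGA6 and just below it for TNC and THBS1, while the groups of COL16A1 lie far apart.

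Promoter windows of 4 of these loci are shown because 3 of the genes rose and 1 pair of collagen genes shares its start region. They come from RefSeq (build GRCh38.p14) and run from 250 bases before to 50 after an annotated start. Capitals mark matches on either strand to TGACTCA (an AP-1 element), GGGCGG (a GC box) and TATAAA (the TATA box), which do not overlap each other here. The windows lie at chr1:31703968-31704267 (minus strand), chr12:54419217-54419516 (minus strand) and chr2:172427086-172427385 (plus strand; 1 of 2 annotated windows of ITGA6).
COL16A1: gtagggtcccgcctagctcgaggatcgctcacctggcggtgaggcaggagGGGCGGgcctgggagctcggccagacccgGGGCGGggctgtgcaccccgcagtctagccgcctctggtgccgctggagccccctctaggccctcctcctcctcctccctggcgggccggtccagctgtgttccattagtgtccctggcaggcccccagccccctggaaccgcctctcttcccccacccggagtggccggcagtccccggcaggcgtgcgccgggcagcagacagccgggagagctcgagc
ITGA5: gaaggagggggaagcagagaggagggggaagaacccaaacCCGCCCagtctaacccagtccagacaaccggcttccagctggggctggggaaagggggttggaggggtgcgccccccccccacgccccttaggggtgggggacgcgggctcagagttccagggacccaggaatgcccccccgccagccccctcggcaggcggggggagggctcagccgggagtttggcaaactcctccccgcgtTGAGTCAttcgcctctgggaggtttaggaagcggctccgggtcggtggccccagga
ITGA6: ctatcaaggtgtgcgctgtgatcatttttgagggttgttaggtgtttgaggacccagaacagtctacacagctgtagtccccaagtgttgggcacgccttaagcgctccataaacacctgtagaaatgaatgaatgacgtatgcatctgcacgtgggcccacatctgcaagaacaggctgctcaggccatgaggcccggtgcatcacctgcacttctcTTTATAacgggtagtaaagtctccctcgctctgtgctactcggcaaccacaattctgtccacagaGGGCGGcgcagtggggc
GC boxes occur in all 7 windows of the 6 genes that rose, in 71.1% of the 45 windows of the 33 measured genes with an entry, and in 45% of all 35116 windows. The AP-1 letters occur in 1 of those 7 windows, that of ITGA5, against 4.95% of all windows, and the TATA letters in 1, that of ITGA6, against 11.5%. These matches describe the letters only.

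COL4A1 and COL4A2, the chains of the common type IV collagen of basement membranes, are transcribed in opposite directions from starts 127 bases apart. The stretch between them, with both start bases, is chr13:110307157-110307284 on the plus strand, with its single GC box in capitals.
COL4A1 and COL4A2: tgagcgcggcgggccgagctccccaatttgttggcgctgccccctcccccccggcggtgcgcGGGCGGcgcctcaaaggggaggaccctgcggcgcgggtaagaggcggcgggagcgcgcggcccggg
COL4A1 read 8.87, 8.76 and 8.73 without and 8.92, 8.56 and 8.78 with histamine, and its log2 difference was -0.03 with a 95% interval of -0.33 to 0.27. COL4A2 read 6.60, 6.33 and 7.00 without and 6.09, 6.61 and 6.78 with histamine, with a difference of -0.15 (-0.66 to 0.37). The groups of both genes overlap. COL4A5 and COL4A6, whose starts lie 380 bases apart in opposite directions, also overlapped between groups and differed by -0.22 (-0.55 to 0.10) and 0.09 (-0.46 to 0.63).

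None of the other measured integrin subunits passed the test. Among partners of ITGB1, ITGA3, a receptor for the laminin of the epidermal basement membrane, read 10.61, 10.80 and 10.74 without and 10.90, 10.96 and 11.01 with histamine. All its histamine arrays lay above its control arrays, but the difference of 0.24 ± 0.11 (adjusted p = 0.113) missed the threshold. ITGA2, a collagen receptor subunit, differed by -0.18 (95% interval -0.43 to 0.07). ITGAV, which binds vitronectin and fibronectin, differed by 0.11 (-0.19 to 0.40), and its histamine arrays lay within the control range. The subunits ITGA4 and ITGA11 differed by -0.45 and 0.05, with intervals that include 0. ITGA10, a collagen receptor subunit of cartilage, was detected on every control array and on no histamine array. Its histamine mean lay at least 1.09-fold lower, a bound that carries no sampling error. The 95% interval of its difference was -1.11 to 0.04, which includes 0 (adjusted p = 0.177).

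ITGB1, the beta chain shared by most of these receptors, read 12.71, 12.75 and 12.65 without and 12.73, 12.64 and 12.96 with histamine. Its difference was 0.07 with an interval of -0.14 to 0.28, and the groups overlap. ITGB5, a partner of ITGAV, differed by 0.13 (-0.09 to 0.35) on its brightest probe. ITGAE and ITGB7, which form the E-cadherin receptor of lymphocytes in the epidermis, differed by less than 0.01 (interval -0.27 to 0.27) and by -0.32 (-0.76 to 0.12). ITGB2, the leukocyte beta chain, differed by -0.13 (-0.51 to 0.25). ITGB8 was detected on 1 array of each group and was not measured.

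Of the 6 measured genes of the hemidesmosome and its laminin ligand, ITGA6 alone rose. ITGB4, its partner in the hemidesmosome, read 9.63, 9.66 and 9.18 on control replicates 1, 2 and 3 and 9.03, 9.15 and 9.19 on histamine replicates 1, 2 and 3. Control replicates 1 and 2 were high and control replicate 3 lay within the histamine range. The difference was -0.37 ± 0.14 (adjusted p = 0.0779), opposite in sign to that of ITGA6. Without control replicate 3 it was -0.52 and passed, with an adjusted p of 0.00910. With median scaling it also passed, at -0.57 (adjusted p = 0.0351). The other kept probe of ITGB4 gave 0.18, and the mean of its kept probes gave -0.09 (adjusted p = 0.665). PLEC, the plakin that links the beta 4 tail to keratin, read 6.90, 7.09 and 6.94 without and 6.81, 6.56 and 6.53 with histamine. The groups did not overlap, yet the difference of -0.35 ± 0.20 (adjusted p = 0.238) did not pass. DST read 5.39, 6.09 and 6.09 without and 6.43, 6.21 and 6.44 with histamine, also without overlap, and differed by 0.50 ± 0.26 (adjusted p = 0.174) in the opposite direction. CD151, the tetraspanin that binds laminin-receptor integrins, differed by 0.06 (-0.13 to 0.25). KRT14, a basal keratin anchored at hemidesmosomes, rose by 0.53 ± 0.10, and KRT5, its partner, differed by 0.32 ± 0.12 (adjusted p = 0.062). KRT15, the remaining basal keratin of that list, differed by -0.13 ± 0.13 (adjusted p = 0.544).

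**Figure D3:**
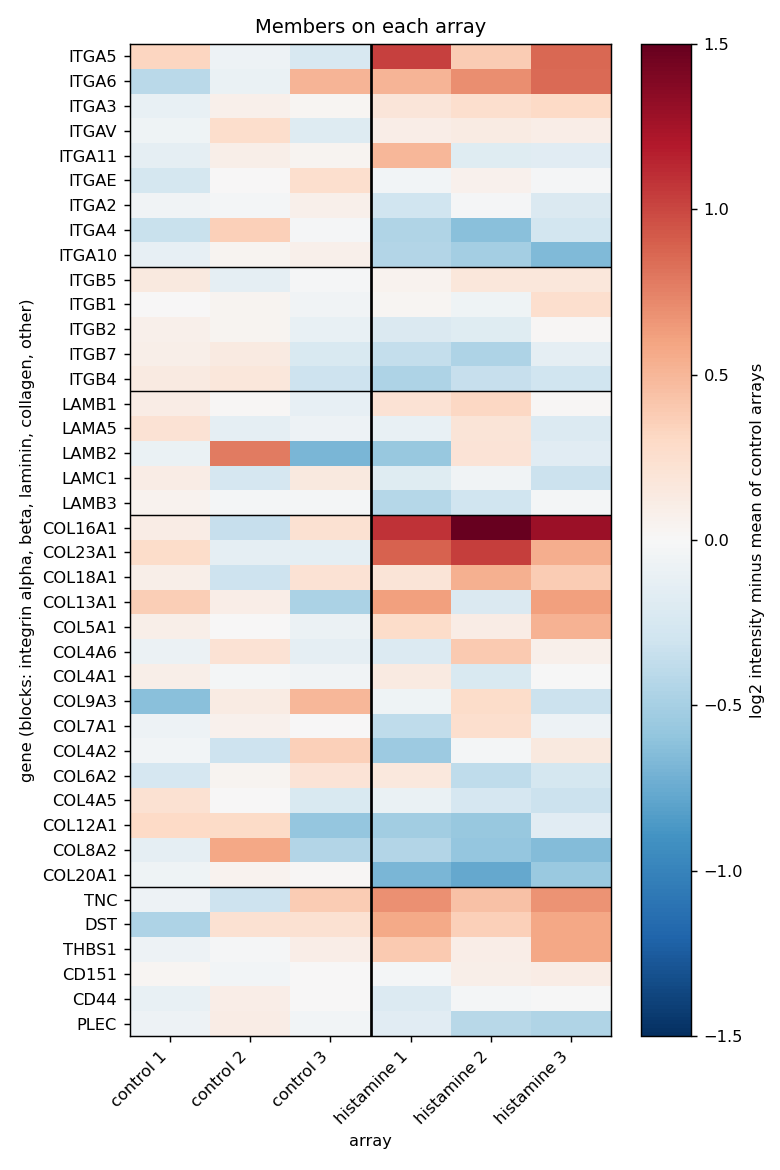
Normalized log2 intensity of each of the 40 measured genes on each array, minus the mean of the gene's 3 control arrays; red is above that mean, blue below, and the colour scale ends at 1.5 either way. Control replicate 3 is red for ITGA6 and TNC and blue for ITGB4 and COL12A1, as the histamine arrays are. For COL23A1 and ITGA5 it is blue while the histamine arrays are red.

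No laminin chain passed the test on its brightest probe. LAMB3, the beta chain of laminin-332, read 11.43, 11.34 and 11.34 on control replicates 1, 2 and 3 and 10.94, 11.07 and 11.34 on histamine replicates 1, 2 and 3. The histamine arrays were lower without overlap, histamine replicate 3 by less than 0.01, and the difference was -0.25 ± 0.11 (adjusted p = 0.119). LAMC1, the gamma chain of most other laminins, differed by -0.19 (-0.44 to 0.06), and LAMA5, an alpha chain of adult epithelial basement membranes, by -0.04 (-0.29 to 0.21). LAMB2 varied more among the control arrays (6.44, 7.32 and 5.85 without and 5.97, 6.74 and 6.37 with histamine) than between the groups. LAMB1 differed by 0.18 (-0.15 to 0.50) on its brightest probe.

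The other measured collagens did not pass. COL7A1, which forms the anchoring fibrils below the epidermal basement membrane, read 9.28, 9.42 and 9.36 without and 8.98, 9.60 and 9.29 with histamine and differed by -0.07 (-0.38 to 0.25). COL18A1, the collagen from which endostatin is cut, differed by 0.37 ± 0.19 (adjusted p = 0.169). COL20A1 was detected on every control array and on no histamine array (5.59, 5.72 and 5.68 without and 4.98, 4.89 and 5.10 with histamine). Its histamine mean lay at least 1.16-fold lower, a bound that carries no sampling error, and the difference did not pass (adjusted p = 0.0872). COL8A2, a short-chain collagen, differed by -0.56 ± 0.24 (adjusted p = 0.112), with control replicate 2 the highest of the 6 arrays (7.03, 7.73 and 6.71 without and 6.72, 6.57 and 6.51 with histamine). COL12A1, which binds the surface of collagen fibrils, read 8.12, 8.10 and 7.24 without and 7.30, 7.25 and 7.65 with histamine. Control replicates 1 and 2 were high and control replicate 3 was the lowest of the 6 arrays; the difference was -0.42 ± 0.22 (adjusted p = 0.196), and -0.71 without control replicate 3 (adjusted p = 0.0126). COL5A1, COL6A2, COL9A3 and COL13A1 were each detected on 3 to 5 arrays and differed by 0.30, -0.16, -0.04 and 0.34. CD44, the hyaluronan receptor of keratinocytes, differed by -0.08 on its brightest probe, with an interval of -0.28 to 0.13.

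Of the measured genes 12 had more than 1 kept probe, and for 4 of them a dimmer probe gave a call that the brightest did not, that of COL4A5 being a probe kept through the control arrays only. Probes tested singly were adjusted over all 17871 kept probes, of which 21.9% were called; of the 57 kept probes of these genes 9 were called higher and 1 lower. The second probe of LAMB1 read 6.07, 6.50 and 6.52 without and 7.57, 7.41 and 7.13 with histamine, without overlap, and rose by 1.00 ± 0.22 (adjusted p = 0.00312). The second probe of ITGB5 read 10.85, 10.84 and 11.08 without and 11.47, 11.47 and 11.58 with histamine, without overlap, and rose by 0.58 ± 0.11 (adjusted p = 0.000935). The second probe of CD151 rose by 0.48 ± 0.15 (adjusted p = 0.0324). The second probe of COL4A5 was detected on every control array and on no histamine array (5.90, 5.72 and 5.87 without and 4.81, 4.97 and 4.83 with histamine). It was at least 1.3-fold lower, a bound that carries no sampling error, and its log2 difference was -0.96 ± 0.27 (adjusted p = 0.015). As it was kept through the control arrays only, it could enter the test only by differing, and its call supports nothing further. The second kept probe of ITGA6 differed by 0.25 ± 0.20 (adjusted p = 0.398), and that of TNC by 0.49 ± 0.18 (adjusted p = 0.0534).

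The probes of DST differed in sign. Its representative probe and a pair of others gave 0.50, 0.43 and 0.57, while the remaining kept probe gave -0.80 ± 0.29 (adjusted p = 0.0545), with values of 6.64, 6.51 and 5.88 without and 5.08, 5.66 and 5.90 with histamine. The kept probes of CD44 gave -0.08, -0.35 and 0.57, and those of ITGB4 -0.37 and 0.18, none of which passed. Both kept probes of LAMB3 were negative (-0.25 and -0.39). DST, CD44, ITGB4 and ITGA6 are spliced into several transcripts, and which of them each probe reads was not analysed here.

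**Figure D4:**
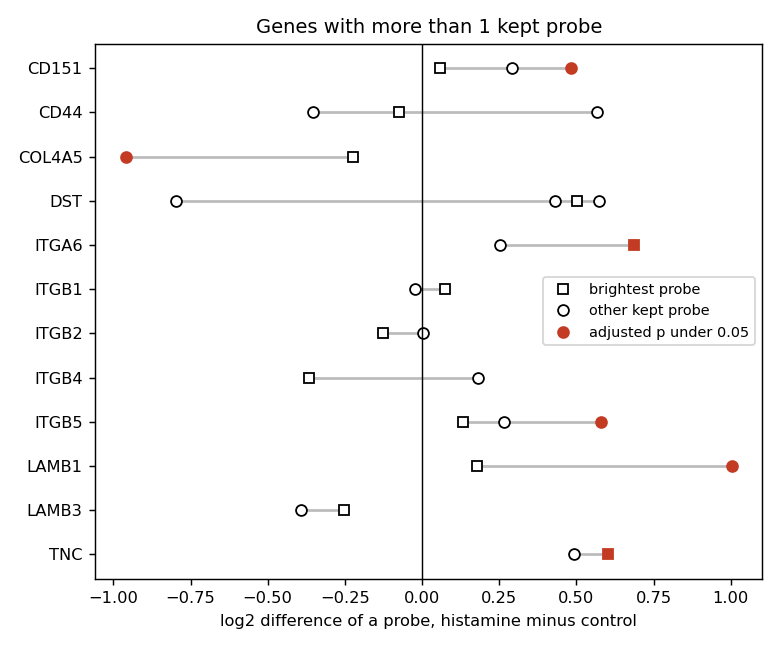
Log2 difference, histamine minus control, of every kept probe of the 12 genes with more than 1; squares are the brightest probe of a gene, circles the others, and red marks an adjusted p-value under 0.05 over all kept probes. The red circles of LAMB1 (1.00), ITGB5 (0.58), CD151 (0.48) and COL4A5 (-0.96) lie apart from white squares of the same genes.

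In 6 lists of genes that work with integrins and collagens 12 rose and 11 fell, and with arrays scaled to their medians 5 rose and 16 fell. Of all genes tested 9.29% were called higher and 12.1% lower, and with median scaling 456 rose and 1816 fell of 10406. The counts of the lists are given beside these, with nothing particular to the lists read from them. Of 26 measured focal adhesion adaptors and kinases 4 rose and 4 fell: FERMT2 (kindlin-2, an integrin activator) rose by 1.06 ± 0.24, PXN (paxillin, an adhesion scaffold) by 0.80 ± 0.20 and RSU1, a partner of the ILK complex, by 0.73 ± 0.19. The genes that fell were SRC, a tyrosine kinase of focal adhesions, by 0.70 ± 0.18, the talin-binding KANK2 and KANK1 by 0.65 ± 0.22 and 0.64 ± 0.20, and TNS3 (tensin 3) by 0.39 ± 0.11. Of 10 measured integrin-binding regulators the tetraspanin CD9 rose by 0.58 ± 0.14, SLC3A2, the CD98 heavy chain, fell by 0.37 ± 0.11, and 8 did not pass. Of 16 measured genes for collagen synthesis and crosslinking 3 rose and 4 fell. SEC24D and SEC23A, subunits of the coat of vesicles that carry procollagen, rose by 0.88 ± 0.25 and fell by 0.69 ± 0.19, and PPIB, a prolyl isomerase of collagen folding, rose by 0.65 ± 0.23. Of 19 other measured basement membrane and matrix genes 3 rose and 2 fell: NID2 (nidogen 2, a linker of laminin and collagen IV) was detected on no control array and was at least 1.6-fold higher, a gene that passed the filter through histamine arrays only and so could enter only by differing, LTBP2 rose by 1.07 ± 0.22 and MATN2 (matrilin 2) fell by 0.62 ± 0.13. None of 9 other measured matrix receptors, syndecans among them, passed. The median log2 differences of these lists, in the order given, were -0.03, -0.03, -0.15, 0.14 and -0.14, against -0.08 for all genes tested; in the sixth list, of 3 basal keratins, KRT14 alone rose and the median was 0.32.

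Transcripts of skeletal muscle were raised on all 3 histamine arrays, most on replicate 1. ACTA1, the muscle marker with the largest difference, read 4.52, 4.66 and 4.54 without and 13.9, 9.51 and 9.19 with histamine. On histamine replicate 1, 29 of 33 muscle markers exceeded their control mean 2-fold or more, against 6 on histamine replicate 2 and 6 on replicate 3. The summed level of the list, the log2 of the offset-free intensities of each gene's brightest probe added up, was 9.21 to 9.35 on the control arrays and 15.5, 11.0 and 10.7 on histamine replicates 1, 2 and 3. Leaving out histamine replicate 1 keeps the muscle transcripts of replicates 2 and 3 in the fit. Without histamine replicate 1, COL16A1 and ITGA6 were the 2 genes called, and the calls of COL23A1, ITGA5, TNC and THBS1 were lost. For COL16A1 and ITGA6 that array lay below the mean of the other histamine arrays by 0.33 and 0.26, and for ITGA5 above it by 0.40. Of 22 fibroblast and stroma markers 8 were measured and 2 rose, the smooth muscle genes TAGLN (1.44 ± 0.20) and ACTA2 (0.94 ± 0.25); the summed level was 10.3 to 10.5 without and 10.7 to 10.8 with histamine, and PDGFRA, PDGFRB, THY1 and FAP were detected on no array. Of 12 endothelial markers none was measured (summed level 7.14 to 7.29 without and 7.15 to 7.44 with histamine), PECAM1, CDH5 and KDR being detected on no array. Of 7 melanocyte markers 1 was measured and did not pass (6.38 to 7.06 and 6.53 to 6.90), and TYR and SOX10 were detected on no array. Of 12 immune cell markers 3 were measured and CD68, also a lysosomal protein, rose by 1.26 ± 0.19, while PTPRC, CD3D and CD3E were detected on no array; the summed level was 9.38 to 9.69 without and 9.96 to 10.0 with histamine. All 11 keratinocyte markers on the array were measured, of which 4 rose and 1 fell. The part of these transcripts in the differences of the matrix and adhesion genes was not tested, and in bulk RNA fewer cells of a type and less RNA per cell cannot be told apart.

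**Figure D5:**
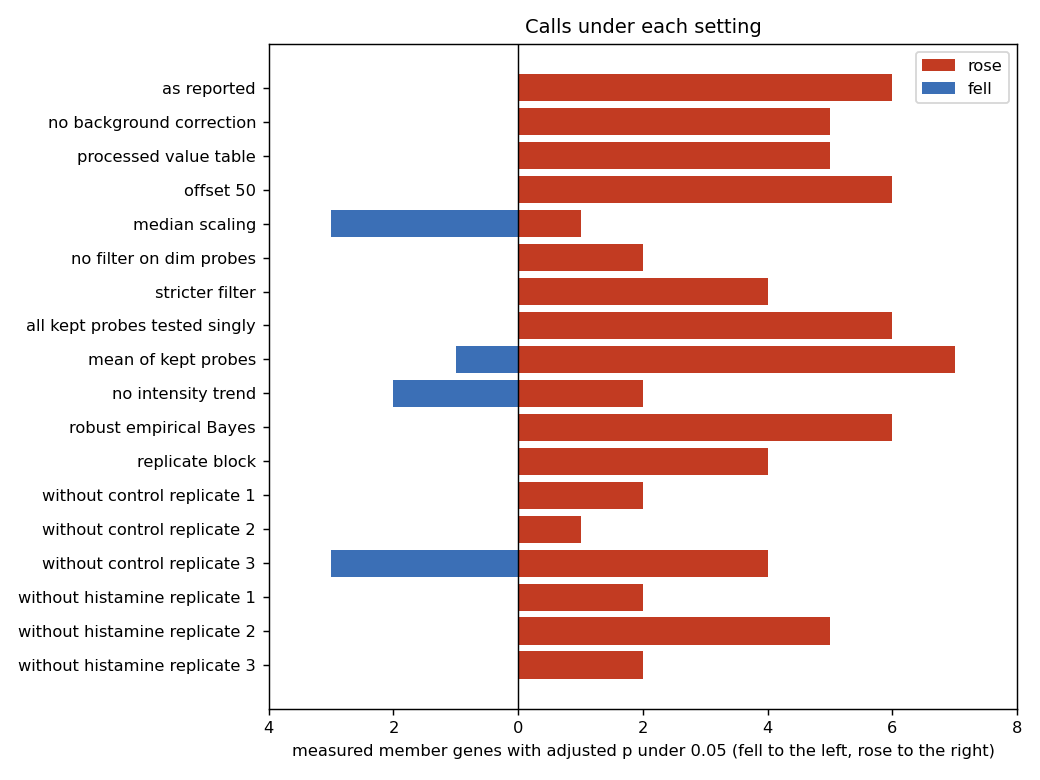
Number of the measured genes called under the reported setting (top bar) and each of the 17 others; bars to the right count genes that rose and bars to the left genes that fell. The count of genes that rose runs from 1 to 7 and that of genes that fell from 0 to 3.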

How the data were processed

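The deposited intensities are average bead signals of each probe, per the file headers, and their differing medians show no normalization across arrays. The deposited detection p-values, per the file headers, place each signal among negative control beads. The authors' processed table is on a log2-like scale with equal quantiles on every array (median 7.46), made by a transform not given in the sources used here. Per the submitters' processing notes, GenomeStudio 2010.1 and lumi were used.

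Signals were background corrected with limma 3.58.1 (R 4.3.3, statmod 1.5.0), by the normexp model with negative controls inferred through the detection p-values and 16 added as offset, then put on the log2 scale and quantile normalized. The offset compresses folds of dim probes. This kept 17871 probes and 10406 genes. Of all probes 30112 carry 1 symbol, 8 several and 17202 none; 30073 symbols matched by Entrez identifier the RefSeq gene table (GRCh38.p14) and 0 changed. A model with the 2 groups was fitted in limma with moderated variances that follow intensity (empirical Bayes, 2-sided; median total degrees of freedom 17.8, median standard error 0.17), and the fit was tested on simulated data. Arrays detected 36.7% to 40.9% of probes; 3 per group limits the precision. The genes described and the lists were chosen with earlier results of these data known. The named genes are those past the threshold, the hemidesmosome list, the integrin subunits, the 3 brightest and the 3 largest differences among the others, and up to 3 past the threshold per list; further members, and the focal adhesion genes that fell, were chosen after their values were seen. Leaving out an array kept the normalization and the probes of all 6.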

Additional observations from a re-analysis of the deposited data

How the results depend on the processing

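The difference of COL16A1 kept its direction and its call under all 17 alternatives, with values from 0.64 to 1.42. The other genes that rose kept their direction but lost their call under 6 (ITGA6), 7 (TNC and THBS1), 8 (COL23A1) or 10 (ITGA5) of them; the stricter filter left COL23A1 and ITGA5 untested. The number of measured genes that rose was 6, but 1 with median scaling, 2 with no filter on dim probes, 2 without the intensity trend and 1 to 5 leaving out 1 array. The number that fell was 0, but 3 with median scaling (COL8A2, ITGB4 and LAMB3), 1 on the mean of kept probes (COL4A5), 2 without the intensity trend (COL20A1 and ITGA10) and 0 to 3 leaving out 1 array (COL12A1, COL8A2 and ITGB4, all without control replicate 3). Of the genes in the 6 working lists 12 rose and 11 fell. The number that rose was 5 with median scaling, 8 with no filter or without the trend, and 9 with the stricter filter. It was 11 to 13 under the other settings that kept all arrays, and 8 to 13 leaving out 1 array. The number that fell was 16 with median scaling, 6 with no filter, 4 without the trend and 9 with the block. It was 11 to 12 under the other settings that kept all arrays, and 4 to 11 leaving out 1 array. Median scaling moved the median of all genes from -0.08 to -0.26 and the share of higher calls from 43.5% to 20.1%; relative to that median ITGA6 stood at 0.73, TNC at 0.66, THBS1 at 0.41, ITGB4 at -0.32 and LAMB3 at -0.19. On the mean of kept probes ITGB5 and LAMB1 also rose. With the replicate number as a block 4 rose (COL16A1, ITGA6, THBS1 and TNC) and 0 fell; same-numbered samples did not deviate together (correlations of -0.03, -0.03 and -0.05), so the numbers were not taken as pairs. The cause of these changes was not tested. Dim probes near background, such as those of COL23A1, ITGA5, ITGA10 and COL20A1, limit what the arrays can show.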
